A study of Mus musculus with 6 samples.

Results

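The cytosolic ribosomal protein genes of mouse heart muscle were taken by symbol: every Rpl or Rps gene with a number, with an optional letter and paralog ending, together with Rplp0, Rplp1, Rplp2 and Rpsa, and without pseudogene names ending in -ps. The rule found 84 genes among 17891 in the tables, 51 with large subunit symbols (Rpl) and 33 with small subunit symbols (Rps), and 82 of them were listed in all 6 samples and entered the test. Heart muscle (myocardium) of C57BL/6 mice aged 6 weeks was sequenced in 2 groups of 3 samples, wild type (WT) and NS-DADm. The labels state the tissue, strain, age and genotype of each sample, and mice of the NS-DADm line carry mutations throughout the body in the deacetylase activating domains (DADs) of both NCOR and SMRT, the nuclear receptor corepressors that activate HDAC3 through these domains. The changes are not limited to heart muscle cells, and the mutations cannot be checked in counts per gene. The labels do not say that the samples come from separate mice, so a p-value here measures only how far these samples spread, which may be technical. The design raises 2 questions: whether messages of the ribosome differed between the genotypes, and whether a paralog was used in place of its parent gene.

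The cytosolic ribosome is built from ribosomal RNA and one copy of most ribosomal proteins in a small subunit, which reads the message, and a large subunit, which joins the amino acids. Messages for these proteins start with a short pyrimidine tract, the TOP motif, through which mTOR and LARP1 set their translation together, so that protein output can change with no change in RNA. Rpl3, a protein close to the catalytic centre of the large subunit, has a paralog, Rpl3l, whose expression is restricted to heart and skeletal muscle. Rpl22 has a paralog, Rpl22l1, that is known to rise when Rpl22 is lost.

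The start of the coding sequences shows how far Rpl3 and Rpl3l can be told apart in short reads. Bases 1 to 120 of each coding sequence, from the first base of the start codon, are from GENCODE M21, and capitals mark the 31 bases at which they differ.
Rpl3: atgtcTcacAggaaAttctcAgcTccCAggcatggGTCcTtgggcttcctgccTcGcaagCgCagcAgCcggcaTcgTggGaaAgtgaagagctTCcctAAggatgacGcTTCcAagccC
Rpl3l: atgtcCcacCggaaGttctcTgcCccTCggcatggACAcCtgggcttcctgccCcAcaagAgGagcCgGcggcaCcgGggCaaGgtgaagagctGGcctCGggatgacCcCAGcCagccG
Over 1209 aligned coding bases the genes were 74.3% identical, and the longest run they shared was 22 bases. For Rpl22l1 and Rpl22 the identity was 69.4% and the longest shared run 26 bases.

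Levels are given as FPKM, the fragment number scaled by gene length and library size, as the authors deposited it. Differences are log2 fold changes of NS-DADm over WT from edgeR's quasi-likelihood test on the deposited expected counts, and called means a Benjamini-Hochberg adjusted p under 0.05 over 13130 tested genes. Total expected counts ran from 10183776 to 11205194 in WT and from 12262491 to 12758270 in NS-DADm, so every NS-DADm library was deeper. Summed FPKM of 9 heart muscle markers lay between 48549.7 and 53559.0 in all samples, and that of 5 skeletal muscle markers between 1.43 and 3.59. Summed FPKM of 5 atrial markers (Sln, Myl4, Myl7, Nppa and Bmp10) was 268.8 to 570.9 in WT 1, WT 2 and NS-DADm 2 and 3740.4 to 6541.6 in WT 3, NS-DADm 1 and NS-DADm 3, with Bmp10 below the listing minimum of 0.01 FPKM in each of the former. The amount of atrial RNA thus split the libraries across genotypes. Of 10 tested macrophage markers 4 rose (C1qa, C1qb, C1qc and Csf1r, against 1.79% of all genes), with sums of 290.3 to 323.6 in WT and 373.1 to 430.9 in NS-DADm. The sum of 6 mural cell markers was 289.4 to 319.9 in WT and 231.8 to 266.5 in NS-DADm, and that of 5 erythroid markers 6707.7 to 7970.2 in WT and 3394.1 to 6679.6 in NS-DADm, with none called in either list. Rgs5 made up most of the mural sum (mean 214.0 FPKM in WT and 167.0 in NS-DADm). The other mural log2 fold changes were -0.29 for Kcnj8, -0.18 for Pdgfrb, -0.04 for Cspg4, -0.02 for Acta2 and 0.49 for Myh11. The part of these differences in the results was not tested, and in bulk tissue fewer cells of a type cannot be told apart from less RNA per cell.

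Messages of the cytosolic ribosome differed little between the genotypes. Of 82 tested genes 1 was called, Rps4l, which fell, against 3.2% of all tested genes called. The median log2 fold change was 0.04, against 0.00 over all tested genes, and 53 of the 82 values were positive, against 49.3% of all genes. FPKM did not overlap between the groups for 5 of the 82, or 6.1%, against 23.4% of all genes: Rpl22l1, Rpl7l1 and Rplp0 were higher (8.94% of all genes) and Rps27l and Rps4l lower (14.5%). At an unadjusted p under 0.05 there were 3 genes higher (Rpl22l1, Rpl7l1 and Rps27a) and 1 lower (Rps4l), against 18.1% of all genes in either direction. Leaving out the paralogs, all 77 tested genes lay within 0.2 of zero, from -0.14 for Rpl21 to 0.18 for Rpl10a. The 95% intervals of these 77 ran from -0.33 at the lowest to 0.39 at the highest, so changes beyond these bounds were not covered by the interval of any of them.

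**Figure D1:**
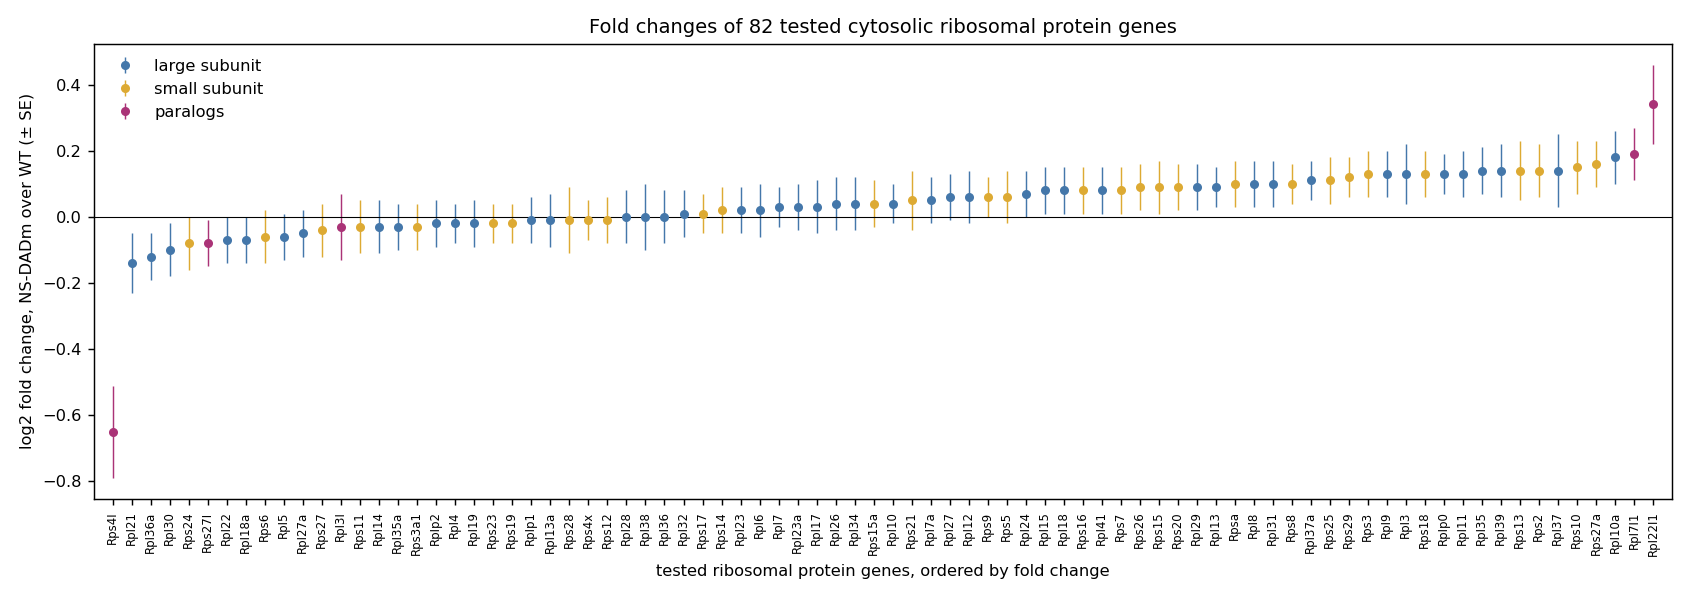
Log2 fold change of NS-DADm over WT with its standard error for each of the 82 tested ribosomal protein genes, in order of fold change, with large subunit genes in blue, small subunit genes in yellow and paralogs in purple. All points but Rps4l (-0.65) and Rpl22l1 (0.34) lie within 0.2 of zero.

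Large subunit genes had a median log2 fold change of 0.03 over 46 and small subunit genes 0.06 over 31, with none called in either. Within samples, the median log2 FPKM of small subunit genes exceeded that of large subunit genes by 0.0966 ± 0.0405 (SD, n = 3) in WT and 0.0809 ± 0.0486 in NS-DADm. The difference was smaller than the spread between samples (exact two-sided permutation test, p = 0.5, where 3 against 3 cannot go below 0.1), and its sign turned when means replaced medians (0.02) or WT 3 was left out (0.01). With means, the small subunit genes were the lower ones, by -0.043 in WT and -0.0247 in NS-DADm, so neither subunit's genes can be called more abundant.

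The acidic stalk of the large subunit, which recruits the elongation factors, was represented by Rplp0, Rplp1 and Rplp2. Rplp0, the base of the stalk, stood at 699.87, 659.28 and 649.29 FPKM in WT and 714.84, 719.97 and 720.57 in NS-DADm. Every NS-DADm sample was above every WT sample, but the difference was small and not called (log2 fold change 0.13, SE 0.06, edgeR adjusted p = 0.29). Rplp1 stood at 902.0 ± 64.3 (SD, n = 3) FPKM in WT against 872.0 ± 21.7 in NS-DADm, and Rplp2 at 581.0 ± 45.6 and 558.0 ± 33.4, with log2 fold changes of -0.01 and -0.02. Neither was called.

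Rpl5 and Rpl11, which with 5S RNA form the particle that binds MDM2 when ribosome assembly fails, were not called. Rpl5 stood at 205.07, 214.73 and 192.43 FPKM in WT and 209.45, 181.41 and 185.79 in NS-DADm (log2 fold change -0.06, edgeR adjusted p = 0.723). Rpl11 stood at 413.71, 391.93 and 392.98 in WT and 460.78, 389.31 and 434.49 in NS-DADm (0.13, adjusted p = 0.352). The groups overlapped for both genes. In the small subunit, Rpsa, also known as the laminin receptor precursor, stood at 440.0 ± 20.5 FPKM in WT against 462.0 ± 29.1 in NS-DADm. Rps6, the S6 kinase substrate whose phosphorylation is a readout of mTOR activity, stood at 379.0 ± 24.2 and 358.0 ± 27.0. Neither was called (adjusted p = 0.506 and 0.756), and RNA says nothing of the phosphorylation.

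The most abundant message per length was Rps2, a small subunit protein near the entry of the message, at 1155.4, 1111.11 and 1015.93 FPKM in WT and 1199.31, 1250.14 and 1088.74 in NS-DADm. Next came Rpl23a, at the exit of the nascent chain, with a mean of 918.0 FPKM over the 6 samples, then Rplp1 (887.0), Rpl35 (803.0), Rpl41 (783.0), Rps27 (738.0), Rps15 (715.0), Rps24 (703.0), Rplp0 (694.0) and Rpl28 (651.0). Rps2 exceeded Rpl23a in every sample, whereas the ranges over samples of each later gene and the next in this order overlapped. Their log2 fold changes lay between -0.08 for Rps24 and 0.14 for Rps2 and Rpl35, with adjusted p from 0.29 to 0.988. The lowest of the tested genes were Rpl7l1 (20.9 FPKM), Rps4l (21.7), Rps15a (25.4) and Rpl22l1 (27.1). The place of Rps15a, a protein of the small subunit body, depends on the length used by the authors: its counts and FPKM imply 5098 bases, against a median of 664 over the 82 genes. By mean expected count (1501) Rps15a was at place 70 of 82, Rpl22l1 (129) was last and Rps4l (215) next to last.

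The genes with the largest fold changes other than the paralogs were not called. Among the higher ones, Rpl10a, a protein of the L1 stalk, stood at 287.68, 242.07 and 252.41 FPKM in WT and 300.9, 297.86 and 267.15 in NS-DADm (0.18, SE 0.08, edgeR adjusted p = 0.282). Rps27a, made as a fusion with ubiquitin, stood at 227.25, 205.47 and 198.28 against 243.94, 219.75 and 227.86 (0.16, adjusted p = 0.256), and Rps10 at 416.0 ± 23.7 and 453.0 ± 40.5 (0.15, adjusted p = 0.319). Among the lower ones, Rpl21 stood at 202.4, 222.31 and 183.78 FPKM in WT and 196.62, 167.64 and 179.66 in NS-DADm (-0.14, SE 0.09, adjusted p = 0.436). Rpl36a, Rpl30 and Rps24 followed with -0.12, -0.10 and -0.08. The groups overlapped for each of these 7 genes.

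Ribosomal protein messages stood high or low as a set in single samples of both genotypes. Relative to the mean of the 6 samples, the median log2 CPM of the 77 genes without paralogs was 0.035 for WT 1, -0.003 for WT 2 and -0.089 for WT 3. For NS-DADm 1, 2 and 3 it was 0.098, -0.019 and -0.038. NS-DADm 1 was above the mean for 76 of the 77 genes and the highest sample for 52. WT 3 was above the mean for 4 and the lowest sample for 39. Both extreme samples had high atrial transcripts, and so did NS-DADm 3, which lay between them. Genes for mitochondrial ribosomal proteins and the nuclear-encoded respiratory chain were also low in WT 3 (medians of -0.09 and -0.08) but near the mean in NS-DADm 1 (0.003 and 0.011). In NS-DADm 3 these medians were -0.023 and -0.072, so the respiratory chain was about as low there as in WT 3.

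**Figure D2:**
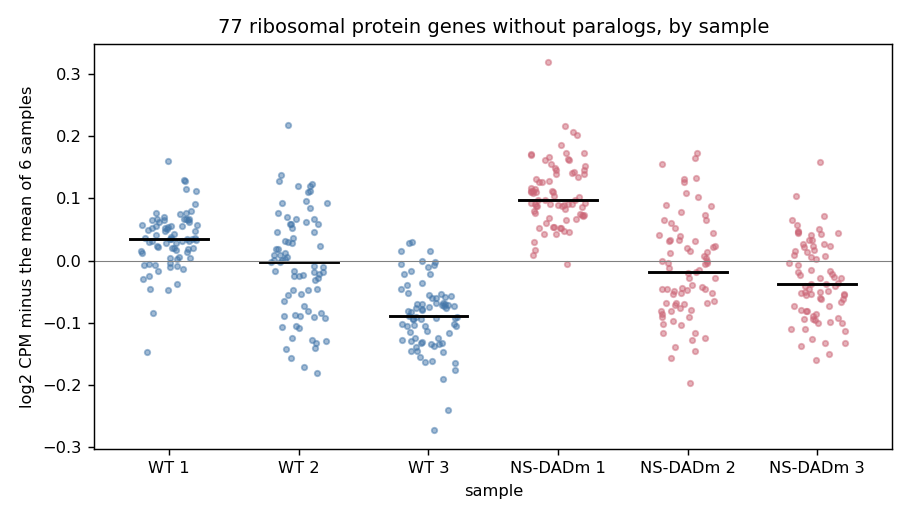
Log2 CPM of each of the 77 ribosomal protein genes without paralogs minus the gene's mean over the 6 samples, by sample, with one point per gene and a bar at the median. The median is highest in NS-DADm 1 (0.098) and lowest in WT 3 (-0.089), and the other samples of both groups lie between.

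Summed over the 84 genes, ribosomal protein messages took 2.34%, 2.26% and 2.17% of expected counts in WT and 2.43%, 2.21% and 2.22% in NS-DADm. The means were 2.26% ± 0.0853 (SD, n = 3) and 2.29% ± 0.121, a difference of 0.03 percentage points that lay within the spread (exact two-sided permutation test, p = 0.7). It was -0.04 without NS-DADm 1 and -0.01 without WT 3, and -0.09 within the libraries of low and 0.15 within those of high atrial transcripts. The coefficient of variation over the 6 samples had a median of 6.44% over the 77 genes, from 1.92% for Rpl10 to 12.8% for Rpl37. Other genes of at least 100 FPKM had a median of 6.49%.

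The muscle paralog Rpl3l was expressed at a level similar to or above that of Rpl3, and neither was called. Rpl3l stood at 213.63, 226.33 and 205.53 FPKM in WT and 205.21, 233.48 and 180.58 in NS-DADm. Rpl3 stood at 168.14, 156.79 and 172.92 in WT and 190.59, 152.01 and 191.79 in NS-DADm. The groups overlapped for both, and Rpl3l exceeded Rpl3 in 5 of 6 samples, the exception being NS-DADm 3. Log2 fold changes were -0.03 for Rpl3l (SE 0.10, 95% interval -0.25 to 0.18, edgeR adjusted p = 0.899) and 0.13 for Rpl3 (SE 0.09, -0.06 to 0.32, adjusted p = 0.479). The lengths implied by counts and FPKM were alike, 1313 and 1293 bases.

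As a share of the summed FPKM of the pair, Rpl3l made up 56.0%, 59.1% and 54.3% in WT and 51.8%, 60.6% and 48.5% in NS-DADm. The means were 56.4% ± 2.42 and 53.6% ± 6.23 (SD, n = 3), with the NS-DADm values spread to both sides of WT. The log2 ratio of Rpl3l to Rpl3 differed by -0.16, within the spread (exact two-sided permutation test, p = 0.5, Benjamini-Hochberg adjusted p = 0.7 over the 7 paralog pairs tested). The ratio differed with the atrial transcripts of the sample: it was 0.35 to 0.62 in the 3 libraries with few and -0.09 to 0.25 in the 3 with many. Within the libraries with few the genotype difference was 0.18, and within those with many -0.24. Each such split has 1 sample in one arm (NS-DADm 2 among those with few, WT 3 among those with many), so these and the other values within the splits are given without error or test. With the atrial score as a covariate, the log2 fold change was 0.06 for Rpl3l and 0.04 for Rpl3 (edgeR adjusted p = 0.749 and 0.847). The sign for Rpl3l also turned without WT 2 (0.01) or NS-DADm 3 (0.06).

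The elongation factor pair Eef1a2, the form of adult muscle and neurons, and Eef1a1, the general form, was split in the same way. Eef1a1 stood at 701.91, 685.39 and 891.02 FPKM in WT and 835.15, 637.1 and 900.6 in NS-DADm, high in WT 3, NS-DADm 1 and NS-DADm 3. Eef1a2 varied less, at 811.86, 894.49 and 832.17 in WT and 829.9, 802.84 and 817.12 in NS-DADm. The log2 ratio was 0.21 to 0.38 in the libraries with few atrial transcripts and -0.14 to -0.01 in those with many, and the genotype difference was 0.04 and 0.02 within them (-0.10 over all samples, exact permutation p = 0.7). The part of atrial tissue in either ratio was not tested.

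**Figure D3:**
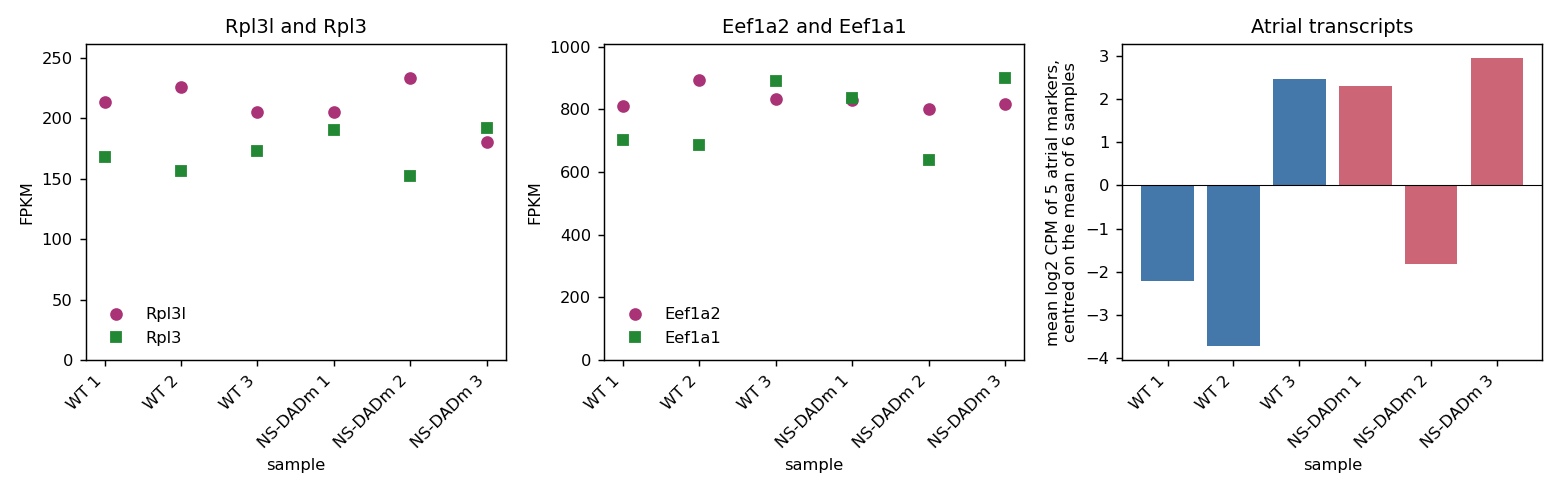
FPKM of Rpl3l and Rpl3 (left) and of Eef1a2 and Eef1a1 (middle) in each sample, and the mean log2 CPM of 5 atrial markers centred on the 6 samples (right; WT blue, NS-DADm red). Rpl3 and Eef1a1 come closest to or exceed their muscle paralogs in WT 3, NS-DADm 1 and NS-DADm 3, the samples with high atrial transcripts.

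Rpl22l1, the paralog of the RNA-binding protein Rpl22, was higher in NS-DADm without passing the test over all genes. Its FPKM was 24.04, 23.69 and 25.10 in WT and 33.52, 27.48 and 28.98 in NS-DADm, so that every NS-DADm sample was above every WT sample. The log2 fold change was 0.34 (SE 0.12, 95% interval 0.06 to 0.61, unadjusted p = 0.0212, edgeR adjusted p = 0.186). Rpl22 stood at 85.72, 82.51 and 74.24 FPKM in WT and 80.43, 74.09 and 73.78 in NS-DADm, with overlapping groups (-0.07, SE 0.07, adjusted p = 0.693). Rpl22l1 made up 21.9%, 22.3% and 25.3% of the summed FPKM of the pair in WT and 29.4%, 27.1% and 28.2% in NS-DADm. The groups of shares did not overlap, and the log2 ratio differed by 0.39, at the smallest p the design allows (exact two-sided permutation test, p = 0.1, adjusted p = 0.233 over 7 pairs). It was 0.39 within the libraries of low and 0.26 within those of high atrial transcripts. The counts behind Rpl22l1 were few, with a mean of 129, and the share rests on lengths of 407 and 2115 bases implied for Rpl22l1 and Rpl22.

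**Figure D4:**
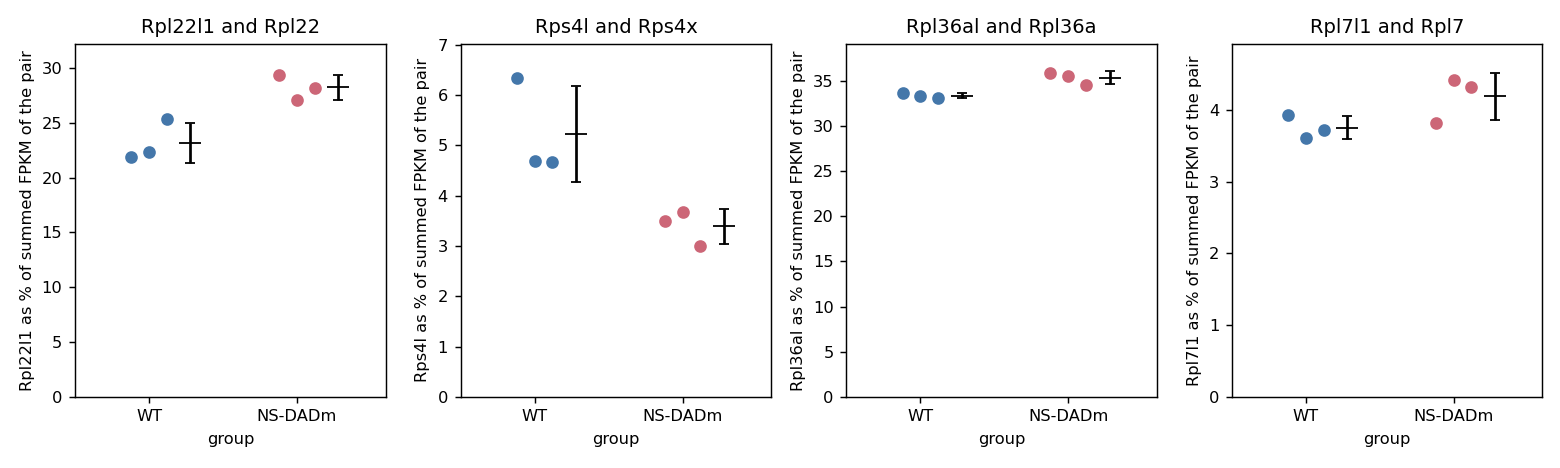
FPKM of a paralog as a percentage of the summed FPKM of the pair, for 4 pairs, with one point per sample and the mean ± SD of 3 samples beside the points. Rpl22l1 and Rpl36al take a larger share in every NS-DADm sample than in any WT sample, Rps4l a smaller one, and Rpl7l1 overlaps.

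Rps4l, a paralog by name of the small subunit protein gene Rps4x, was the one gene called. It fell from 32.71, 24.62 and 22.84 FPKM in WT to 17.84, 17.65 and 14.39 in NS-DADm, with every NS-DADm sample below every WT sample and WT 1 apart from the other WT samples. The log2 fold change was -0.65 (SE 0.14, 95% interval -0.98 to -0.33, 1.57-fold lower, edgeR adjusted p = 0.0405). Behind these values were 305, 217 and 224 expected counts in WT against 193, 196 and 154 in NS-DADm. The call was close to the threshold. It was lost without WT 1 (log2 fold change -0.49, adjusted p = 0.12), without WT 2 (-0.70, 0.109) and without NS-DADm 1, 2 or 3 (-0.70, -0.71 and -0.55, adjusted p = 0.0942, 0.0707 and 0.102). It was also lost with the atrial covariate (-0.55, adjusted p = 0.0693) and with limma on FPKM (-0.64 and -0.67, adjusted p = 0.0765 and 0.126), and it stood without WT 3 (0.0277), with DESeq2 (0.00612) and at equal depth (0.029).

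Rps4x did not share the difference, at 484.0 ± 17.5 (SD, n = 3) FPKM in WT against 473.0 ± 16.8 in NS-DADm (-0.01, adjusted p = 0.976). The share of Rps4l in the pair was 6.33%, 4.68% and 4.66% in WT and 3.49%, 3.67% and 3.0% in NS-DADm, a log2 ratio lower by 0.64 at the smallest p the design allows (exact two-sided permutation test, p = 0.1, adjusted p = 0.233 over 7 pairs). It was -0.59 within the libraries of low and -0.55 within those of high atrial transcripts.

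GENCODE M21 lists Rps4l as a transcribed processed pseudogene, and the tables hold one noncoding RefSeq transcript for it. Bases 1 to 120 of the Rps4x coding sequence are shown beside bases 55 to 174 of the Rps4l RNA, from GENCODE M21, to show how near the copy is, with capitals at the 26 differences.
Rps4x: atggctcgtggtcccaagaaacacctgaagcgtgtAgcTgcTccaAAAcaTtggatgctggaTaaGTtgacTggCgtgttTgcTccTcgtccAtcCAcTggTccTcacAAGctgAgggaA
Rps4l: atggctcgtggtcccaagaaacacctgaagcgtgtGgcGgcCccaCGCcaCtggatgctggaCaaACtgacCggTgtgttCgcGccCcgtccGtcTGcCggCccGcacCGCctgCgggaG
Over 789 aligned bases the genes were 80.1% identical, with a longest shared run of 35 bases. Reads no longer than such a run could come from either gene, and read length was not examined here. The Rps4l frame that starts at the shown ATG runs for 262 codons before a stop, against 263 in Rps4x. Whether it is translated was not measured.

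The remaining pairs differed less. Rpl36al, the autosomal copy of Rpl36a with a symbol outside the rule, made up 33.3% ± 0.317 (SD, n = 3) of the pair in WT and 35.4% ± 0.674 in NS-DADm, without overlap, a log2 ratio higher by 0.13 (exact permutation p = 0.1, adjusted p = 0.233). It was 0.13 and 0.14 within the libraries of low and high atrial transcripts. Neither gene was called, with log2 fold changes of 0.01 for Rpl36al and -0.12 for Rpl36a. The coding sequences were 87.9% identical.

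Rpl7l1, a relative of Rpl7 with a role in ribosome assembly, stood at 20.92, 19.39 and 18.87 FPKM in WT and 21.21, 23.13 and 22.01 in NS-DADm. Every NS-DADm value was above every WT value (0.19, SE 0.08, edgeR adjusted p = 0.222), while Rpl7 stood at 506.0 ± 15.4 and 507.0 ± 23.7. The ratio of the pair differed by 0.16 (exact permutation p = 0.2, adjusted p = 0.35). Rps27l, a paralog of Rps27 known as a p53 target, stood at 76.69, 74.67 and 70.62 FPKM in WT and 68.27, 66.43 and 70.35 in NS-DADm. Here every NS-DADm value was below every WT value, by little (-0.08, SE 0.07, adjusted p = 0.629), and the ratio to Rps27 differed by -0.03 (exact permutation p = 0.7). The testis paralog Rpl39l had at most 3 expected counts in any sample and Rpl32l at most 2, near the limit of detection, and Rpl10l was not listed, so these had no test.

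Transcript models gave no call for a ribosomal protein gene. Of 107 models listed 100 were tested, and 6 had an unadjusted p under 0.05 (against 11.2% of all tested transcripts). By edgeR 0 of the 100 were called, against 0.0972% of all tested transcripts, and their lowest edgeR adjusted p was 0.27. DESeq2 called 2, the single models of Rplp0 and Rps4l (adjusted p = 0.0366 and 0.0193), against 4.92% of all transcripts. One model was listed for 70 genes and several for 14. Rpl3l was carried by one of 2 models, which held 93.9% to 98.2% of its FPKM in the 6 samples. Of the models of Rpl35a, a large subunit protein, a minor one stood at 32.34, 31.86 and 31.55 FPKM in WT and 35.18, 41.94 and 43.39 in NS-DADm, without overlap (0.36, unadjusted p = 0.0167, edgeR adjusted p = 0.319). It made up 9.97% to 10.7% of the gene in WT and 10.9% to 15.4% in NS-DADm. Other minor models were lower without overlap. One of Rpl38 stood at 26.34, 57.99 and 32.19 FPKM in WT and 25.79, 23.43 and 25.78 in NS-DADm (-0.59, edgeR adjusted p = 0.574). One of Rpl35a stood at 3.05, 2.34 and 2.01 against 1.97, 1.88 and 0.0 (-0.91, edgeR adjusted p = 0.866). The share of all transcripts without overlap was not counted. For Rpl22, one of the 2 larger models took 64.8%, 77.2% and 43.8% of the gene in WT and 48.2%, 55.8% and 48.2% in NS-DADm, a spread among WT samples wider than the difference. The other took more, 51.0% to 55.1%, in WT 3, NS-DADm 1 and NS-DADm 3, the libraries with high atrial transcripts. For Rpl38 one model took 76.4%, 43.5% and 78.6% in WT and 84.0%, 83.6% and 78.0% in NS-DADm, with WT 2 apart. These shares are estimates that divide reads between near-identical models.

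Promoter sequence was not used by the rule. RefSeq promoter entries (GRCm38.p6) matched 63 of the 84 genes. A run of at least 8 C or T on the sense strand within 15 bases either side of a start was found for 28 (44.4%), against 13.9% of 27025 genes with an entry. The letters CGGAAG on either strand, a core bound by ETS factors such as GABPA, were in the 300 bases around a start for 42 (66.7%), against 18.8% of the same 27025 genes. These 27025 were not limited to the 13130 tested genes, and expressed genes alone were not compared. Windows of 65 bases, 40 before the start and 25 from it, are shown with runs of at least 8 C or T in capitals. They are from Rpl35 and Rpl28, abundant genes that have such a run, and from the paralogs Rpl22l1 and Rpl3l (first listed start).
Rpl35, chr2:39005107-39005171, minus strand: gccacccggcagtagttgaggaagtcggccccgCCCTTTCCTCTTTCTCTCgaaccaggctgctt
Rpl28, chr7:4792925-4792989, plus strand: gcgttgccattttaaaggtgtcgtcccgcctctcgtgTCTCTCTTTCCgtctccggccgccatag
Rpl22l1, chr3:28805468-28805532, plus strand: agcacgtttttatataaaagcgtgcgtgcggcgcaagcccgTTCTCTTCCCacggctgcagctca
Rpl3l, chr17:24727786-24727850, plus strand: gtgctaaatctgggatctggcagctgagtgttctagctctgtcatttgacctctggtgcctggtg
The run crossed the start in Rpl35 and Rpl28 and lay just after it in Rpl22l1. The Rpl3l window had none of that length, and neither did the window of its other listed start. These matches describe letters and not binding or translation.

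Of the other genes of ribosome production and its control, 3 were called. Rack1, a scaffold on the small subunit whose symbol the rule left out, stood at 284.98, 266.74 and 262.22 FPKM in WT against 294.74, 303.62 and 286.23 in NS-DADm (0.15, edgeR adjusted p = 0.251). It was higher without overlap, as were 8.94% of all tested genes, and was not called. None was called among 17 other TOP messages, 32 initiation factors, 11 elongation and termination factors and 15 genes of RNA polymerase I, with median log2 fold changes of -0.02, 0.01, 0.05 and -0.09. Among 79 ribosome biogenesis factors 1 rose and 0 fell, with a median of -0.01. Among 25 genes of mTOR and TOP control 1 rose and 0 fell, with a median of 0.06, and Larp1, which binds the TOP motif, stood at 22.6 ± 1.27 and 22.1 ± 0.362 FPKM. Among 17 genes of ribosome rescue and quality control 1 fell and 0 rose, with a median of -0.07. The 77 mitochondrial ribosomal proteins and 80 respiratory chain genes had 0 called, with medians of -0.01 and -0.03. These counts stand against 1.79% of all tested genes called higher and 1.41% called lower. FPKM did not overlap between the groups for 35.3% of the other TOP messages, 29.4% of the rescue genes, 27.3% of the elongation and termination factors, 20% of the mTOR and TOP control genes and 16.5% of the biogenesis factors. The share was 13.3% for RNA polymerase I, 9.38% for initiation factors, 6.49% for mitochondrial ribosomal proteins and 16.2% for the respiratory chain, against 23.4% of all genes. Genes higher and lower were 1 and 5 for TOP messages, 0 and 5 for rescue, and 2 and 1 for elongation and termination. They were 2 and 3 for mTOR and TOP control, 6 and 7 for biogenesis, and 0 and 2 for RNA polymerase I. Initiation factors had 1 and 2, mitochondrial ribosomal proteins 1 and 4, and the respiratory chain 0 and 13. Of all genes 8.94% were higher and 14.5% lower.

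The 3 called were Rrp12, Myc and G3bp1. G3bp1, a stress granule protein that binds the small subunit, fell from 48.17, 45.15 and 43.36 FPKM in WT to 31.01, 28.74 and 30.27 in NS-DADm (-0.58, SE 0.06, edgeR adjusted p = 0.00163). The groups lay far apart, and the call stood under all 15 alternatives, with adjusted p up to 0.0285. Rrp12, an export and processing factor of the small subunit, rose from 4.86, 4.32 and 4.81 FPKM to 6.47, 5.64 and 6.89 (0.46, SE 0.09, adjusted p = 0.0256). Myc, a transcription factor known to drive ribosome production, rose from 1.6, 1.44 and 1.53 to 2.42, 3.26 and 3.11 (0.97, SE 0.19, adjusted p = 0.0235). Neither group overlapped the other for these genes. The call of Rrp12 was lost when any 1 sample other than NS-DADm 2 was left out, with limma, with the atrial covariate and at equal depth (adjusted p up to 0.118), with log2 fold changes of 0.37 to 0.49. That of Myc was lost when any 1 sample other than NS-DADm 1 was left out (adjusted p from 0.0513 to 0.105), with log2 fold changes of 0.87 to 1.00.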

How the data were processed

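Per the labels' protocols, frozen myocardium of 6 samples gave total RNA (Trizol, Qiagen kit) for BGI libraries. The authors deposited expected counts and FPKM per gene and per transcript for each sample, per the file headers. HISAT is named in the submitters' processing notes. Its version is not given in the sources used here, and neither is the counting tool, genome build or gene annotation. The tables list features of at least 0.01 FPKM, and between 10.8% and 11.6% of genes in a sample had an expected count that was not whole. How reads were divided between ribosomal protein genes, their pseudogenes and paralogs is not stated, so the values of close copies are uncertain. The 7 rows with -ps names had mean FPKM of 0.972 to 3.64. At the depths above, 3 counts on a gene of 1 kilobase equal 0.235 to 0.295 FPKM.

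Expected counts were rounded and tested with edgeR 4.0.16 in R 4.3.3 (filterByExpr, TMM, glmQLFit and glmQLFTest with no covariate, Benjamini-Hochberg over 13130 genes, threshold 0.05). The common biological coefficient of variation was 0.106. The procedure was tested on simulated data. Ratios of paralogs used FPKM and exact two-sided permutation tests over the samples, for pairs with at least 10 counts in every sample. Samples were compared for duplicates, and no pair agreed within counting noise (mean chi-square per gene of at least 3.5). Alternatives were DESeq2 1.42.0, limma 3.58.1 on log2(FPKM + 1) and log2(FPKM + 0.1), other normalization and filters, a replicate block, an atrial covariate (mean log2 CPM of 5 atrial markers), equal depth and leaving out each sample. Splits by atrial transcripts and the alternatives for Rps4l, Rrp12 and Myc and other single genes were chosen after seeing the data. The genes, lists and tests were chosen with earlier results of these data known. Named genes were the paralogs and parents, called genes, the 10 most abundant, the 5 largest fold changes in each direction at a mean FPKM of at least 1, and Rplp0, Rplp1, Rplp2, Rpsa, Rps6, Rpl5 and Rpl11 for their roles, with up to 4 called genes per list. Larp1, Rack1, Rps15a, Rpl10, Rpl37, Rpl35a, Rps20 and Rpl38 were named after their values were seen. The length behind each FPKM was computed from the count, the FPKM and the library total. One list, of ribosomal proteins outside the symbol rule, is not reported here as a whole.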

Additional observations from a re-analysis of the deposited data

How the results depend on the processing

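The median log2 fold change of the ribosomal protein genes, 0.04, lay between 0.00 and 0.07 in all 15 alternatives. It was 0.01 with both limma fits and without WT 3, and 0.00 without NS-DADm 1. Of all tested genes, 210 and 120 were called with limma (pseudocounts 1 and 0.1) and 117 to 382 without 1 sample, against 420. Among the ribosomal protein genes 0 were called with either limma fit or the atrial covariate, and 0 to 1 without 1 sample. Genes called in the lists of related genes, 3 in all, ranged from 1 to 3 without 1 sample. DESeq2 called 2 transcripts of ribosomal protein genes. Whether the replicate numbers pair the samples is not stated by the labels. To look at this, each gene's group mean was subtracted from its log2 CPM, and the remaining deviations were correlated across genotypes. In these deviations, samples numbered 1, 2 and 3 had correlations of -0.072, 0.328 and 0.402 with their own number. Those numbered 2 and 3 correlated best with their own number, and those numbered 1 did not. Atrial transcripts were low in both samples numbered 2 and high in both numbered 3, so these correlations cannot decide it. The fit with the replicate block called 895 genes in all, 1 ribosomal protein gene (Rps4l, adjusted p = 0.00497) and 5 genes of the lists. Log2 fold changes without 1 sample ran from -0.14 to 0.06 for Rpl3l (0.01 without WT 2, 0.06 without NS-DADm 3), which was 0.06 with the atrial covariate. Differences of log2 ratios without 1 sample ran from -0.36 to -0.01 for Rpl3l to Rpl3 and from 0.34 to 0.47 for Rpl22l1 to Rpl22. They ran from -0.08 to 0.02 for Rps27l to Rps27 (0.02 without WT 3, 0.01 without NS-DADm 1) and from -0.24 to 0.01 for Eef1a2 to Eef1a1 (0.01 without WT 2). Within the libraries of low atrial transcripts Rpl3l to Rpl3 was 0.18, and within those of high ones Rpl22l1 to Rpl22 was 0.26. The summed share differed by -0.04 to 0.07 without 1 sample (-0.01 without WT 3, -0.04 without NS-DADm 1), and by -0.09 and 0.15 within the libraries of low and high atrial transcripts. The balance of the subunits ran from -0.04 to 0.01 (0.01 without WT 3) and was 0.02 with means. The cause was not tested in any of these. Few counts limit Rpl22l1, Rps4l, Rpl39l and Rpl32l.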

Other observations

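Levels per length depended on the length behind FPKM for some ribosomal protein genes. Expected counts and FPKM implied over 1000 bases for 17 of the 82 tested genes, whose median was 664. Rps15a (5098 bases), Rps20 (3383) and Rpl7l1 (2542) had the longest. Rps20, a small subunit protein of the head, was at place 65 by mean expected count and 78 by mean FPKM, and Rpsa (1794 bases) at place 3 by count and 30 by FPKM. Rpl38 (257 bases) was at place 71 by count and 20 by FPKM. The implied length of a gene varied between samples, from 5091 to 5106 bases for Rps15a and, in proportion more, from 252 to 271 for Rpl38. The edgeR fold changes used counts and not this length, but FPKM comparisons of short genes can vary with it.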
